A study of Homo sapiens with 3 samples.

Results

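The cluster of matrix metalloproteinase (MMP) genes on chromosome 11 was examined for binding of 2 AP-1 subunits, Fra-1 and Fra-2, in the cell line MDA-MB-231. Its members were MMP1, MMP3, MMP7, MMP8, MMP10, MMP12 and MMP13, and a peak belonged to the cluster if its centre lay in the body of one of these 7 genes or within 100 kb of one of their transcription start sites (TSSs). That rule took 5 of the 9998 deposited Fra-1 peaks and 4 of the 13003 Fra-2 peaks, which formed 6 distinct sites. All were on chromosome 11, where the annotation of GRCh37, the assembly behind hg19, places the 7 genes on the minus strand between positions 102391239 and 102826461.

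MDA-MB-231 comes from a human breast tumour and is labelled triple-negative and basal B. The cells were kept in medium with 10% fetal calf serum at 37°C without further treatment being named. Chromatin was precipitated with a Fra-1 antibody or a Fra-2 antibody, and input DNA without antibody was a further sample; the labels speak of 2 independent replicates for each of these 3. One list of peak positions per antibody was analysed, without the input, so there is no spread between replicates, no test of Fra-1 against Fra-2, and no depth behind a peak. Intervals in parentheses are 95% exact intervals (Clopper-Pearson for shares, Poisson for densities), which cover counting error only.

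Matrix metalloproteinases are zinc-dependent enzymes that are made as inactive precursors and degrade collagens and other proteins of the extracellular matrix. Several genes of this cluster are textbook targets of AP-1, the dimers of Fos and Jun family proteins that bind the element TGAGTCA and its reverse complement TGACTCA, and in breast cancer cells they are known for their part in invasion. Fra-1 (encoded by FOSL1) and Fra-2 (FOSL2) are Fos family members that lack the transactivation domain of c-Fos.

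Sequence at the peaks showed what 5 of the 6 sites had in common: an exact AP-1 element. The sites are numbered along the chromosome from MMP7 to MMP13. Each is printed below over the Fra-1 peak, or over the Fra-2 peak at site 4, with both end positions included, on the plus strand of hg19, and with the AP-1 element in capitals.
Site 1, chr11:102434951-102435151, Fra-1 peak: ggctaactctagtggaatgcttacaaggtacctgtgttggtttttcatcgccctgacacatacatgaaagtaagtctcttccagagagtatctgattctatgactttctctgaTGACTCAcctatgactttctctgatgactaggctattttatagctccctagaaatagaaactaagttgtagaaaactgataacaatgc
Site 2, chr11:102470401-102470601, Fra-1 peak: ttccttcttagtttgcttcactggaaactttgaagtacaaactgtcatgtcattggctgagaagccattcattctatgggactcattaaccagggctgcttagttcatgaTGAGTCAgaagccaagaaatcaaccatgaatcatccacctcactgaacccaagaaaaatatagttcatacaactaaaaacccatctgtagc
Site 3, chr11:102524551-102524701, Fra-1 peak: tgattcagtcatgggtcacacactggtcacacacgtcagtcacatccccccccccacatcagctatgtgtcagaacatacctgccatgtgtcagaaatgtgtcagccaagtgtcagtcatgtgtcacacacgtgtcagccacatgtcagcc
Site 4, chr11:102598851-102598951, Fra-2 peak: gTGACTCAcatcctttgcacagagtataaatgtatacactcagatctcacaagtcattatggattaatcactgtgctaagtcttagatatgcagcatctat
Site 5, chr11:102722251-102722351, Fra-1 peak: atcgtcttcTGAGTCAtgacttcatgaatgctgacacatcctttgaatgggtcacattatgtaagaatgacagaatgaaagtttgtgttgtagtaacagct
Site 6, chr11:102867051-102867251, Fra-1 peak: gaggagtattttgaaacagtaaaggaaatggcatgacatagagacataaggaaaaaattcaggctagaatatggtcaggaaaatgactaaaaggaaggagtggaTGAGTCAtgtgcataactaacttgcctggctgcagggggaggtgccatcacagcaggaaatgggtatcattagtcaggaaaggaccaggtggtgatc

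Sites 1, 2, 4, 5 and 6 held 1 copy each, TGACTCA at sites 1 and 4 and TGAGTCA at sites 2, 5 and 6. Both spellings are the same element read on opposite strands, so a search of 1 strand for both letters covers both strands. Counted within 100 bp of the peak centre, the element was present in 4 of 5 Fra-1 peaks of the cluster (80.0%, 28.4 to 99.5), beside 56.8% of all nuclear Fra-1 peaks. It was present in 4 of 4 Fra-2 peaks of the cluster, beside 67.5% of all nuclear Fra-2 peaks. Both intervals take in the share over all peaks (the lower bound for the 4 Fra-2 peaks was 39.8%).

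Where both factors had a peak, the element lay within 16 bp of both centres at sites 1 and 2. At site 6 the Fra-2 peak had the same start but a width of 150 against 200 bp, so its centre lay farther from the element. The middle base of the element was 16, 13 and 7 bp from the centre of the Fra-1 peak at sites 1, 2 and 6. From the centre of the Fra-2 peak it was 16, 12 and 32 bp away. At the sites of a single list it lay near the edge, 38 bp from the centre of the 100 bp Fra-1 peak at site 5 and 46 bp from the centre of the 100 bp Fra-2 peak at site 4. Over all peaks that hold the element, its median distance from the centre was 21 bp (Fra-1 list) or 20 bp (Fra-2 list).

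**Figure D1:**
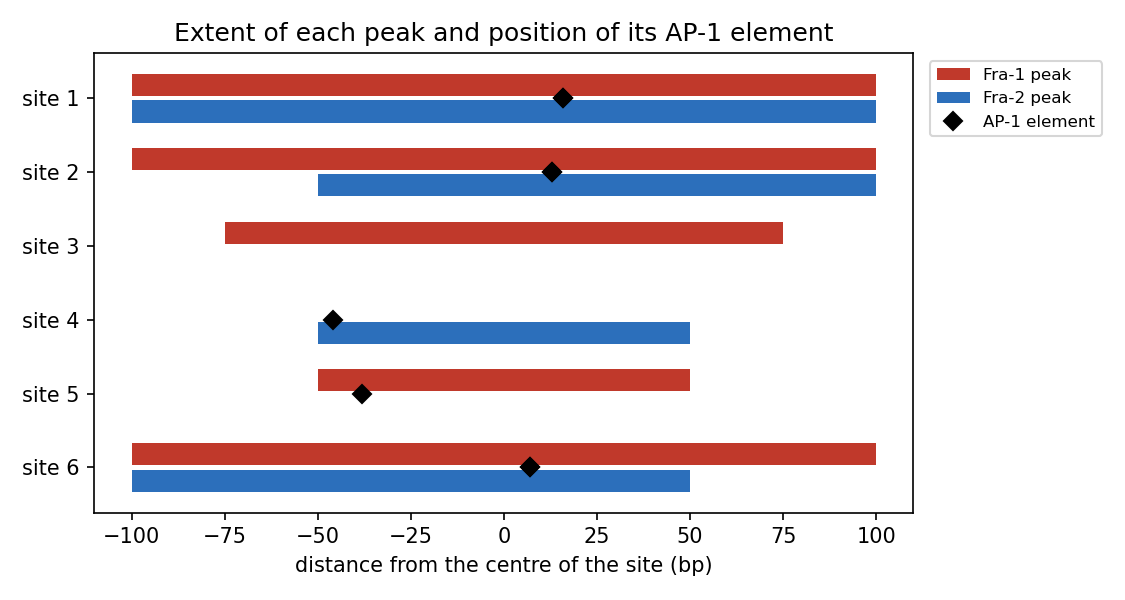
Extent of the Fra-1 (red) and Fra-2 (blue) peak at each of the 6 sites, as the distance in bp from the centre of the Fra-1 peak, or of the Fra-2 peak at site 4; diamonds mark the middle of the AP-1 element. Sites 1, 2 and 6 have both peaks, with the element 7 to 16 bp from the centre of the Fra-1 peak. Site 3 has no element, and at sites 4 and 5 it lies near 1 edge of a 100 bp peak.

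Site 3 was unlike the others. No exact AP-1 element lay within 100 bp of its centre, and the nearest copy was 861 bp away. Its 150 bp hold a short run repeated with variations: the word TGTGTCA, which differs from TGAGTCA by 1 letter, occurred 4 times between the ends of the peak. Within 100 bp of the centre there were 10 seven-letter words with at most 1 mismatch to the element, a number that 0.0802% of nuclear Fra-1 peaks reached; the median was 2. In the window of 1000 bp to each side, 12% of ten-letter words recurred, against 1.61 to 7.38% at the other 5 sites and a median of 1.71% over nuclear Fra-1 peaks; 16.1% of those peaks had at least the value of site 3. GC content was 52.3% in the peak at site 3 and 36.6 to 43.8% in the other 5, with medians over the lists of 45.5% (Fra-1) and 46.8% (Fra-2). Whether reads that map to this repeat contribute to the peak was not tested.

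Other consensus letters were scarce at the sites. The TEAD consensus (GGAATGC or GGAATGT, both strands), bound by the partners of YAP and TAZ, was found at site 1 alone, 84 bp from the centre in both lists; across all nuclear peaks it was in 15.9% for Fra-1 and 13.1% for Fra-2. No site had a RUNX word (TGTGGTT), present in 6.98% of the Fra-1 list and 6.33% of the Fra-2 list. None had an ETS word (CAGGAAG or AGGAAGT, which overlap in 6 letters), against 15.6% of the Fra-1 list and 15.0% of the Fra-2 list. The full cyclic AMP response element was absent too, and rare everywhere, in 0.201% of the Fra-1 list and 0.393% of the Fra-2 list. With 6 sites, such absences say only that these letters are not in these windows.

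Peaks of both lists together fell at single sites, each 35.4 to 145 kb from the next. Site 1 (33.6 kb upstream of MMP7, intergenic) had a Fra-1 and a Fra-2 peak with the same ends, 200 bp wide. Site 2, in an intron of MMP20, the enamelysin gene, had a Fra-1 peak of 200 bp and a Fra-2 peak of 150 bp from 102470451 to 102470601. Site 6, intergenic beyond MMP13, had a Fra-1 peak of 200 bp and a Fra-2 peak of 150 bp from 102867051 to 102867201. These 3 sites were the shared ones: the peaks overlapped by 200, 150 and 150 bp, with centres 0, 25 and 25 bp apart.

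The remaining 3 sites were each in a single list. Site 3, in an intron of a long non-coding RNA gene (ENSG00000281655) between MMP20 and MMP27, was a Fra-1 peak of 150 bp. Site 4, just upstream of MMP8, was a Fra-2 peak of 100 bp. Site 5, between MMP3 and MMP12, was a Fra-1 peak of 100 bp. The narrowest peaks of either list are 100 bp wide, a width that 32.3% of the Fra-1 list and 30.1% of the Fra-2 list have. In the cluster 3 of 5 Fra-1 peaks were at least 200 bp wide (43.3% of the full list), and 1 of 4 Fra-2 peaks was (45.7% of the full list).

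Shared peaks made up 3 of 5 Fra-1 peaks (60.0%, 14.7 to 94.7) and 3 of 4 Fra-2 peaks (75.0%, 19.4 to 99.4) of the cluster. Over the whole lists the shared part was 80.4% for Fra-1 and 61.6% for Fra-2, each inside its interval. Among peaks of a single list, 39.1% of those only in the Fra-1 list and 77.1% of those only in the Fra-2 list held the AP-1 element; in the cluster it was present at 1 of 2 Fra-1-only sites (site 5, not site 3) and at the 1 Fra-2-only site (site 4).

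**Figure D2:**
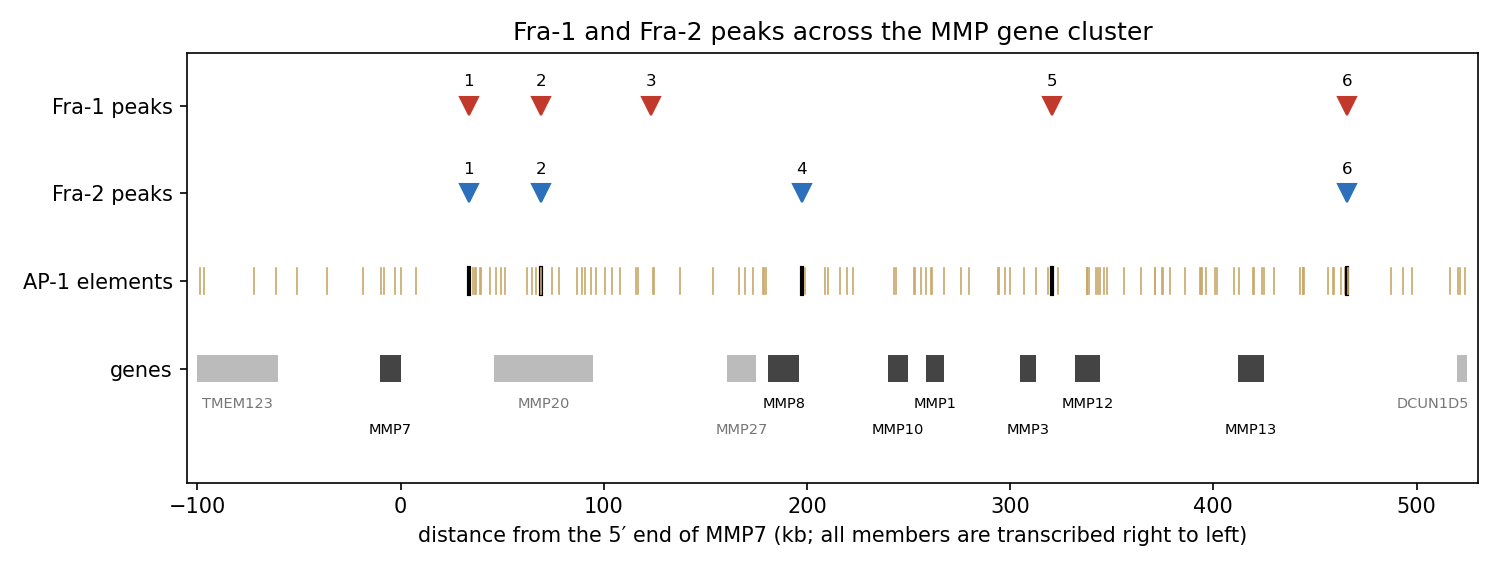
Map of the cluster along chromosome 11, with the distance from the 5′ end of MMP7 in kb on the horizontal axis. Triangles are the 5 Fra-1 peaks (red) and 4 Fra-2 peaks (blue) with their site numbers, ticks are the 125 AP-1 elements of the region (black where in a peak of either list, tan otherwise), and boxes are the 7 members (dark) and neighbouring protein-coding genes (grey); no peak is centred in a member.

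The collagenases, which can cleave the triple helix of fibrillar collagens, had 1 Fra-1 and 1 Fra-2 peak in reach each. MMP1, interstitial collagenase (102660132 to 102668891), had no peak of either list within 50 kb of a TSS. Its Fra-1 peak was site 5, 53.4 kb upstream. Its Fra-2 peak was site 4, on the other side of the gene, 70.0 kb from its 5′ end and 64.7 kb from the internal start of a retained-intron transcript. The 2 peaks lay at different sites on opposite sides of MMP1.

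MMP8, neutrophil collagenase (102582527 to 102597781), had the peak nearest to a TSS in the cluster. Its nearest Fra-1 peak was site 3, on the downstream side, 70.9 kb from a TSS. Its Fra-2 peak was that nearest one, site 4, which lay 1.12 kb upstream of the gene's 5′ end, the start of a transcript annotated for nonsense-mediated decay, and 3.22 kb upstream of the first start of a coding transcript. MMP13, collagenase 3 (102813724 to 102826461), had site 6 in both lists, 40.7 kb upstream.

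The stromelysins degrade proteoglycans and can activate precursors of other MMPs. MMP3, stromelysin-1 (102706532 to 102714340), had the Fra-1 peak of site 5 at 7.96 kb upstream of its 5′ end and no Fra-2 peak in reach; the nearest Fra-2 peak was 111 kb away. MMP10, stromelysin-2 (102641233 to 102651359), had the Fra-1 peak of site 5 at 70.9 kb upstream and the Fra-2 peak of site 4 at 52.5 kb downstream of its TSS.

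MMP7, matrilysin, a small enzyme without the hemopexin domain of the other members (102391239 to 102401481), had the most peaks: 2 Fra-1 and 2 Fra-2 peaks, all shared, at sites 1 and 2, which lay 33.6 and 69.0 kb upstream. MMP12, the macrophage elastase (102733467 to 102745712), had the Fra-1 peak of site 5, 23.4 kb from its TSS on the downstream side, and no Fra-2 peak in reach; the nearest was 121 kb away.

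Nearest Fra-1 peaks put the members in the order MMP3 (7.96 kb), MMP12 (23.4 kb), MMP7 (33.6 kb), MMP13 (40.7 kb), MMP1 (53.4 kb), and MMP8 and MMP10 (70.9 kb each). For Fra-2 the order was MMP8 (1.12 kb), MMP7 (33.6 kb), MMP13 (40.7 kb), MMP10 (52.5 kb), MMP1 (64.7 kb), MMP3 (111 kb) and MMP12 (121 kb). MMP3 and MMP12 were first for Fra-1, on account of the same 100 bp peak, and last for Fra-2. Over all 20098 protein-coding genes the median distance was 123 kb for Fra-1 and 71.5 kb for Fra-2.

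**Figure D3:**
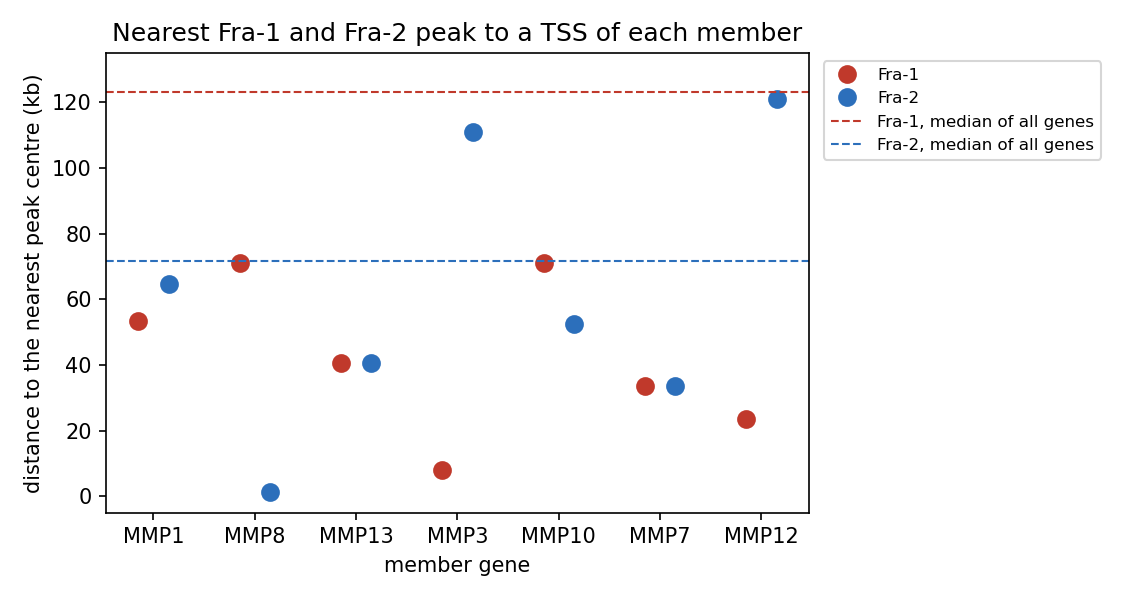
Distance in kb from a TSS of each member, in order of role, to the centre of the nearest Fra-1 (red) and Fra-2 (blue) peak; dashed lines are the medians over 20098 protein-coding genes, 123 kb for Fra-1 and 71.5 kb for Fra-2. MMP7 and MMP13 have both peaks at the same distance, MMP8 has Fra-2 at 1.12 kb, and MMP3 and MMP12 have Fra-2 beyond 100 kb.

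Counted by gene, all 7 members had a Fra-1 peak in reach, beside 45.3% of protein-coding genes, and 5 had a Fra-2 peak, beside 58.6%. The same 5 had both (42.7% of all genes), and MMP3 and MMP12 had Fra-1 without Fra-2 (2.63%). These counts are not of independent genes: the single 100 bp peak of site 5 accounted for the Fra-1 call of MMP1, MMP3, MMP10 and MMP12, and site 4 for the Fra-2 call of MMP1, MMP8 and MMP10. Within 50 kb, 4 members had a Fra-1 peak (MMP3, MMP7, MMP12 and MMP13, beside 31.2% of genes) and 3 a Fra-2 peak (MMP7, MMP8 and MMP13, beside 42.9%), with MMP7 and MMP13 having both (28.8%). Within 10 kb only MMP3 had a Fra-1 peak (16.3% of genes) and only MMP8 a Fra-2 peak (23.3%). No peak was centred inside a member, whereas the shares of all genes also count peaks in the gene body at each reach.

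Just inside the limit of 100 kb were site 3 for MMP8 and site 5 for MMP10, both at 70.9 kb. Just outside were site 5 for MMP13 (104 kb) and site 4 for MMP3 (111 kb). The nearest peaks that belonged to no member were 352 kb from MMP7, inside YAP1, in both lists, and on the other side a Fra-1 peak 574 kb from MMP13.

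Other genes shared the same sites. By nearest protein-coding TSS, sites 1, 2 and 3 belonged to MMP20, at 19.3, 8.08 and 28.6 kb, site 4 to MMP8, site 5 to MMP3 and site 6 to MMP13. The starts nearest to sites 1 and 2 are those of 2 different MMP20 transcripts, both without a defined coding sequence; the coding transcript of MMP20 starts 61.0 kb from site 1 and 25.6 kb from site 2. MMP27 had site 3 at 51.9 kb and site 4 at 22.4 kb. Outside the MMP family, TMEM123 had site 1 at 93.9 kb and DCUN1D5 had site 6 at 86.4 kb. Which gene, if any, a site acts on is not given by these data.

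AP-1 elements were plentiful where no peak was called. The region covered by the rule, from 102301478 to 102926461, is 625 kb long and held 125 exact copies, or 200 per Mb, beside 161 per Mb over the genome. A Fra-1 peak covered 4 of them (3.20%, 0.879 to 7.99) and a Fra-2 peak 4 (3.20%, the same interval), together 5, and 120 lay in no peak. Of the 459778 copies in the genome, 1.56% were covered by the Fra-1 list and 2.27% by the Fra-2 list, inside these intervals.

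Promoter sequence was read for 3 of the 7 members. Among the RefSeq promoters, 250 bases before to 50 after a start (build GRCh38.p14), 3 members were matched, MMP7, MMP8 and MMP10; MMP1, MMP3, MMP12 and MMP13 were not. The MMP7 promoter (chr11:102530698-102530997, minus strand, GRCh38.p14), whose letters also stand unchanged in hg19, holds TGAGTCA starting 67 bases before the start, here in capitals with 20 bases to each side, 5′ to 3′ on the strand of the gene.
MMP7 promoter: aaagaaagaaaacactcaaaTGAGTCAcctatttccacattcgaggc

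No peak of either list lay nearer to this promoter than site 1, at 33.6 kb. It also holds 2 ETS words (CTTCCTG and ACTTCCT). The promoters of MMP8 and MMP10 hold neither AP-1 nor ETS words. For the unmatched members, exact AP-1 elements of the region lie just upstream of the 5′ ends in hg19. They start at 102668956 for MMP1 (5′ end 102668891), 102714404 for MMP3 (102714340), 102745784 for MMP12 (102745712) and 102826506 for MMP13 (102826461). None of these elements lay in a peak of either list. Of 35116 RefSeq promoters, 4.95% hold an exact AP-1 element and 17.2% an ETS word; with 3 promoters read, no share is given for the cluster.

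Peak density in the region was 8.0 per Mb for Fra-1 (2.60 to 18.7) and 6.40 per Mb for Fra-2 (1.74 to 16.4). The whole of chromosome 11 had 3.58 per Mb for Fra-1 and 5.26 per Mb for Fra-2, and the genome had 3.49 per Mb for Fra-1 and 4.55 per Mb for Fra-2, values that the intervals include. The copy number of this region in this aneuploid line was not examined, and its part in the number of peaks was not tested.

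The span of the 7 genes, 435 kb from the first base of MMP7 to the last of MMP13, held 4 Fra-1 and 3 Fra-2 peaks, since site 6 lies beyond it; 2 of the Fra-1 peaks were shared and 3 had the AP-1 element. Of 6586 windows of that length along the genome, 11.7% had at least 4 Fra-1 peaks and 25.7% at least 3 Fra-2 peaks; 47.8% had no Fra-1 and 40.8% no Fra-2 peak. The same 4 counts were found in 5 windows. By the number of TSSs in them, the first 3 were on chromosome 11 from 10445353 to 10880575 with AMPD3, CTR9, EIF4G2, IRAG1, LYVE1, RNF141 and ZBED5, on chromosome 1 from 39605294 to 40040516 with BMP8A, MACF1 and PABPC4, and on chromosome 3 from 36558733 to 36993955 with DCLK3, STAC and TRANK1.

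**Figure D4:**
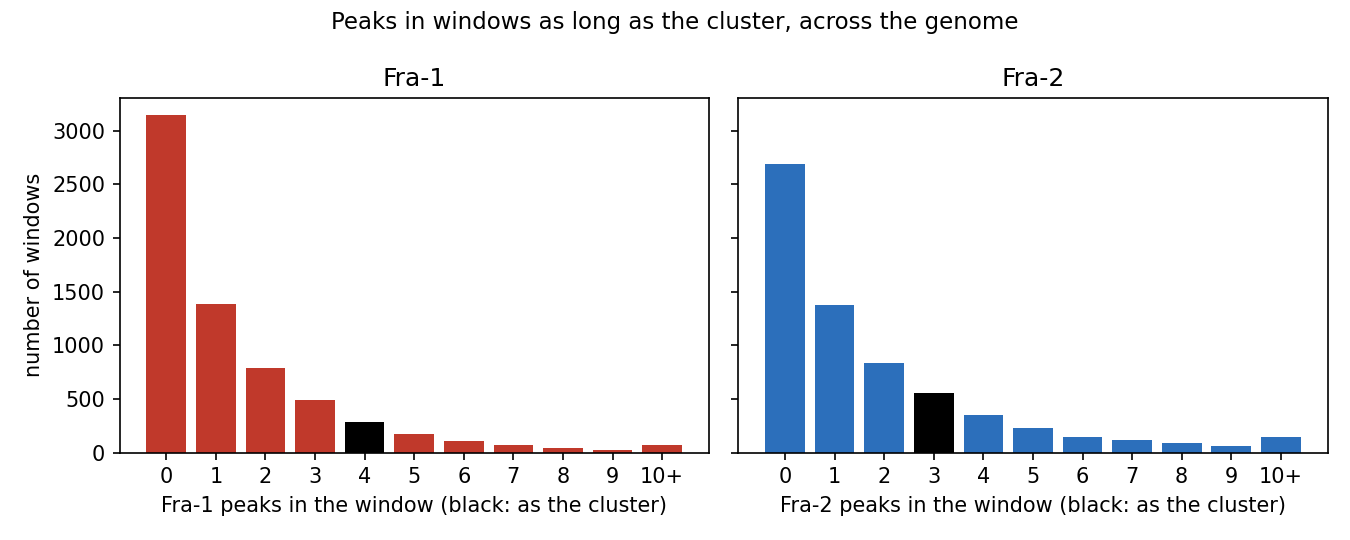
Number of windows of 435 kb (vertical axis, 6586 windows in all) by the number of Fra-1 peaks (left) or Fra-2 peaks (right) they hold; the last bar pools 10 or more. The black bars are the counts of the cluster, 4 for Fra-1 and 3 for Fra-2, against a median of 1 in both.

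Elsewhere in the family, 20 further genes of MMPs and their tissue inhibitors (TIMPs) were counted in the same way. A Fra-1 peak was in reach of 12 of the 20, beside 45.3% of protein-coding genes, and a Fra-2 peak of 12, beside 58.6%. Both were in reach of 11, beside 42.7%. Apart from MMP20 and MMP27, which lie in this cluster and reuse its peaks, these genes lie at other loci. Of the neighbours within the cluster, MMP20 had 3 Fra-1 and 2 Fra-2 peaks and MMP27 had 1 Fra-1 and 1 Fra-2 peak, all of them sites named above. MMP24, a membrane-type MMP, had the most, with 6 Fra-1 and 10 Fra-2 peaks, the nearest at 79.2 kb (Fra-1) and 76.1 kb (Fra-2). TIMP2, an inhibitor that also takes part in the activation of MMP2, had 4 Fra-1 peaks and 7 of Fra-2, the nearest at 5.26 kb (Fra-1) and 1.77 kb (Fra-2). MMP9, gelatinase B, and the membrane-type MMP17 had 3 Fra-1 and 5 Fra-2 peaks each. Neither list had a peak in reach of MMP2 (gelatinase A), MMP15, MMP21, MMP26, MMP28, TIMP1 or TIMP3. The median per gene was 1 Fra-1 and 1 Fra-2 peak among the 7 members and 1 Fra-1 and 1.5 Fra-2 peaks among the 20 other genes, beside 0 Fra-1 and 1 Fra-2 peak over all protein-coding genes.

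**Figure D5:**
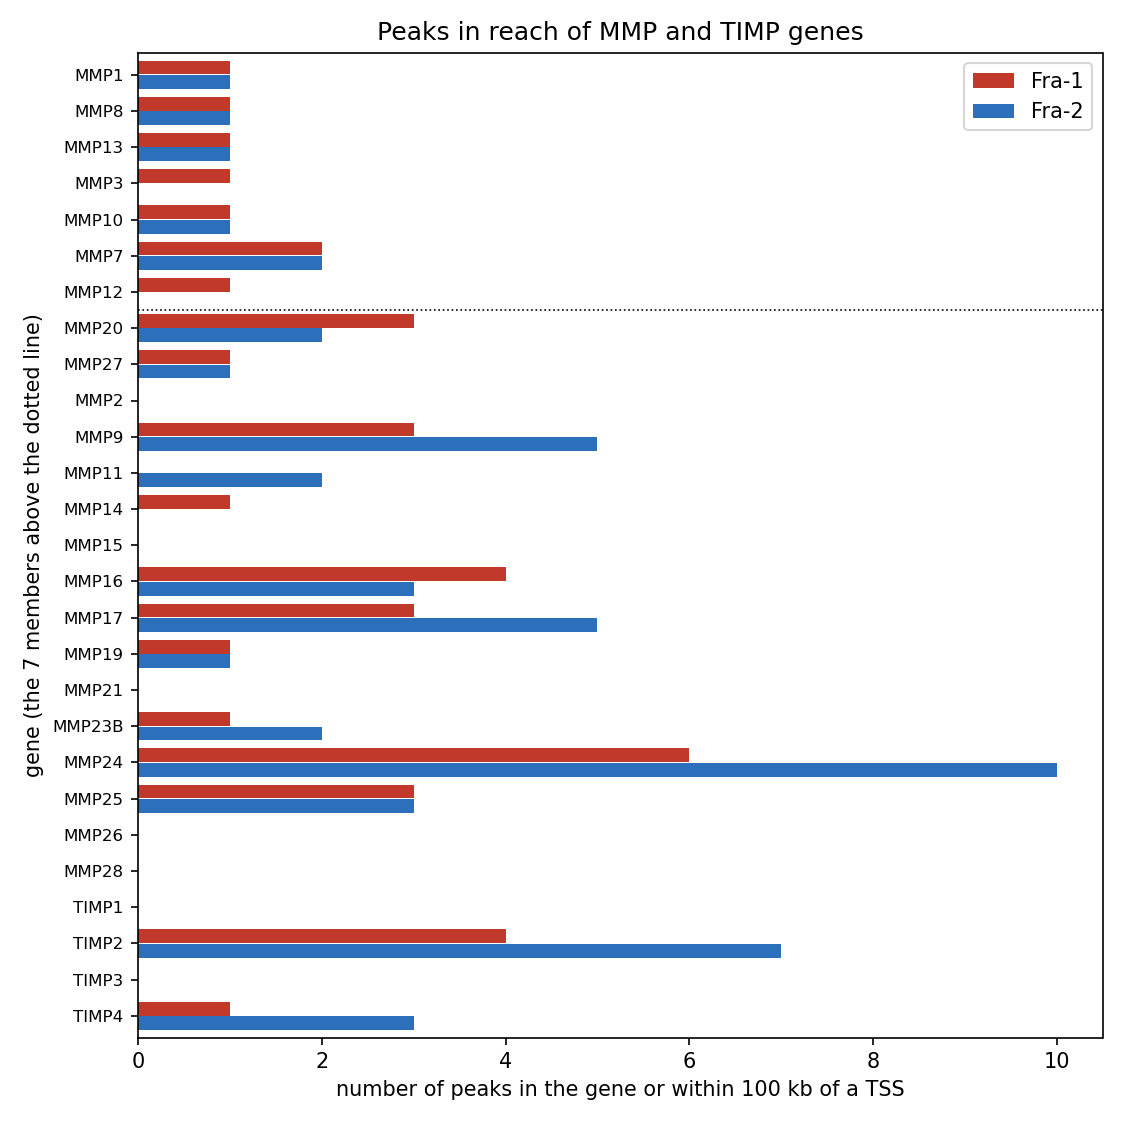
Number of Fra-1 (red) and Fra-2 (blue) peaks in the body or within 100 kb of a TSS for the 7 members, above the dotted line, and for 20 other MMP and TIMP genes. Members have 1 or 2 peaks per list, or no Fra-2 peak at MMP3 and MMP12, while the other genes range from 0 to 6 Fra-1 and 0 to 10 Fra-2 peaks.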

How the data were processed

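Fra-1 and Fra-2 peak positions from the line MDA-MB-231 were used as deposited, 1 list per antibody, with start and end on a grid of 50 bp and no score. The submitters' processing notes name Bowtie2 and hg19, without a version or role; how peaks were called, whether the input was used and how replicates were combined is not given in the sources used here. No nuclear peak passed the end of its GRCh37 chromosome. Starts were read as 1-based, an assumption made because every start in both lists lies 1 above a multiple of 50. Width is end minus start, so a sequence printed with both ends has 201 letters for a width of 200 bp. Everything else was computed with Python 3.11.15, numpy 2.4.6, scipy 1.17.1 and matplotlib 3.10.9 from the GRCh37 sequence, GENCODE 44 lifted to GRCh37 (20098 protein-coding genes outside chromosome Y) and RefSeq promoters. Peaks sharing at least 1 bp counted as shared. No test was made, as each antibody has 1 list; counts stand beside those over all peaks or genes. All 6 sites were described; of the other MMP and TIMP genes, the 4 with most peaks and all without were named. Members and lists were chosen with earlier results of these data known. The counting was checked on planted peaks and elements.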

Additional observations from a re-analysis of the deposited data

How the results depend on the processing

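The counts of peaks and genes depended on the reach chosen. Within 10 kb of a TSS the cluster had 1 Fra-1 and 1 Fra-2 peak, in reach of 1 and 1 members. At that reach or in the gene body, 5 of the 20 other MMP and TIMP genes had a Fra-1 peak, beside 16.3% of protein-coding genes. For Fra-2 there were 6, beside 23.3%. MMP16 was in both counts through peaks in its body, the nearest 28.6 kb from a TSS. Within 50 kb the cluster had 3 Fra-1 and 3 Fra-2 peaks, in reach of 4 and 3 members. With each peak given to the nearest protein-coding TSS, 2 members had a Fra-1 and 2 a Fra-2 peak. With the starts of all gene types, 1 Fra-1 and 1 Fra-2 peak had a member as the nearest gene, against 2 and 2 among protein-coding starts. Among peaks at least 200 bp wide there were 3 Fra-1 and 1 Fra-2 peaks, in reach of 2 and 1 members, and 1 shared in each list. A shorter reach or a width limit admits fewer peaks, and starts of all gene types add competing genes, by construction. Counts of shared peaks did not move with a reciprocal overlap of 50% or centres within 500 bp. The AP-1 element was found in the same number of peaks within 50 bp, within 250 bp and between the ends of the peak; 1 mismatch allowed added site 3, but then 84.8% of all Fra-1 and 88.3% of all Fra-2 peaks held one. No paired analysis was possible because each antibody has a single list. With 5 and 4 peaks and no depth, differences from the genome smaller than the intervals given were not detectable.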
